A study of Mus musculus with 2 samples.

Results

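The genes described here encode the enzymes that make nucleotides and the one-carbon units that nucleotide synthesis consumes. They are 34 listed genes in 8 branches: phosphoribosyl pyrophosphate supply, purine synthesis to IMP, the conversion of IMP to AMP and GMP, pyrimidine synthesis, deoxynucleotide and thymidylate synthesis, salvage, folate one-carbon units and serine synthesis. Of these, 33 were measured, among 18193 genes measured in all, and Impdh2 was not analysed here. Each gene was read through 1 probe set, chosen by the highest mean of both arrays among the probe sets whose platform annotation names only that gene. The list was drawn up with results of these data known, so its differences are given as a description with no test.

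The series compared mouse B cells, cultured and activated, that carry or lack the microRNA miR-155, on Affymetrix 3′ expression arrays. It holds 2 arrays, 1 titled mir155KO and 1 titled mir155WT, both from C57 mice that the protocols give as male. Cells of both groups received cycloheximide, an inhibitor of translation elongation, at 100 ug/ml for 8 min before harvest. The growth protocol names a different culture, progenitors kept for 6 days with G-CSF and stem cell factor. The sources used here do not give how the B cells were activated, the age or number of the animals, or which part of the Mir155 locus the knockout removes. The genotype entries follow the titles, but the source names give the opposite genotype for both arrays. Mir155hg, the host transcript of miR-155, had a level of 10.88 on the array titled mir155KO and 6.63 on the array titled mir155WT. The lower value is under 6.71, the level from which genes count as expressed here. These values go against the titles. A probe set outside the deleted part could give signal in knockout cells. That alone would leave the low level on the array titled mir155WT without an explanation. The arrays are therefore called by their titles. All differences are the array titled mir155KO minus the array titled mir155WT on the log2 scale, and every sign turns if the source names are right.

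A lymphocyte that starts to divide has to double its nucleic acids, and resting lymphocytes rely largely on salvage of preformed bases and nucleosides. Phosphoribosyl pyrophosphate carries the ribose on which the purine ring is built in a chain of reactions ending at IMP, while the pyrimidine ring is assembled as orotate before it joins the ribose. Serine gives a carbon unit to folate in the cytosol and in mitochondria, and these units enter the purine ring and turn dUMP into dTMP. MYC and E2F factors are known regulators of many of these genes, and ATF4 is a known regulator of serine synthesis and of mitochondrial folate enzymes.

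Promoter windows of the members are shown for 4 genes, because 1 had the highest difference of the list (Atic), 2 lie head to head (Ppat and Paics), and 1 belongs to the group with small differences (Mthfd2). The windows run from 250 bases before to 50 bases after the start of each gene in RefSeq, build GRCm38.p6, and are written 5′ to 3′ on the strand of the gene. Capitals mark CACGTG, the E-box that MYC can bind, and CCAAT, the box bound by NF-Y, on either strand.
Atic, chr1:71556906-71557205, + strand: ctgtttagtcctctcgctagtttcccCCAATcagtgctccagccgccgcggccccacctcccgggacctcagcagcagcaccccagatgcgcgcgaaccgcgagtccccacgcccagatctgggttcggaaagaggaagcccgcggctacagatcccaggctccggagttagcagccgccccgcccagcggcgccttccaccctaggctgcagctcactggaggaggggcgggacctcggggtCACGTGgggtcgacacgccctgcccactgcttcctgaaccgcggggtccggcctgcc
Ppat, chr5:76951529-76951828, - strand: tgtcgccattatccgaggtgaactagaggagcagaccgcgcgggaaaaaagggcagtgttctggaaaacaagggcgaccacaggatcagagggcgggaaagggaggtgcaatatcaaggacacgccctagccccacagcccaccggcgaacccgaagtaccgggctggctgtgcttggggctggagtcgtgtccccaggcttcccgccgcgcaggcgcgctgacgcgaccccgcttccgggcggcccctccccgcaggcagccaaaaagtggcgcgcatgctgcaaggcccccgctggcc
Paics, chr5:76951052-76951351, + strand: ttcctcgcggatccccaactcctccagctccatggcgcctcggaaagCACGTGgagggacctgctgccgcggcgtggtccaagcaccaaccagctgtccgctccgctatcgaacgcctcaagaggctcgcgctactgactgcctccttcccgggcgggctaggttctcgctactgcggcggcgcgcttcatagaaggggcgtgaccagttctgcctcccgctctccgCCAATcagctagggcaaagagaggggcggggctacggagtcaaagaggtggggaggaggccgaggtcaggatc
Mthfd2, chr6:83317555-83317854, - strand: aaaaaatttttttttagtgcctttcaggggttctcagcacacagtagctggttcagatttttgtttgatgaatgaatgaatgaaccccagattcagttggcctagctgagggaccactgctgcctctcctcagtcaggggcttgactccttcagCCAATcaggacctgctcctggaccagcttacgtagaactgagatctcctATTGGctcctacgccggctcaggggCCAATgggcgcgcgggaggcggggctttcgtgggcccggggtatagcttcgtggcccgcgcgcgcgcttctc
The annotated starts of Ppat and Paics lie 276 bases apart on opposite strands, with the start of Paics inside the Ppat transcript unit. Their windows do not overlap, and the window of Ppat holds neither motif. Atic has a CACGTG that begins 7 bases before its start, and Paics has one that begins 203 bases before.

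RefSeq promoter windows were found for 32 of the 34 genes, all but Pfas and Dhodh. A CACGTG lay in a window of 4 of these 32 genes (12.5%), namely Paics, Atic, Tyms and Impdh2, against 8.09% of all 27025 genes with a window. CCAAT lay in windows of 15 of 32 (46.9%) against 41.1% of all genes. All 3 serine synthesis genes were among the 15, and the Mthfd2 window shown above holds 3 copies. For E2F only the forms TTTGGCGC and TTTCGCGC were searched, and for ATF4 only TGATGNAAT. These forms were in no member window, and in 0.585%, 0.374% and 1.08% of all genes. Other forms of E2F and ATF4 sites were not searched, so member windows are not shown to lack such sites. These are matches of letters on both strands and say nothing of binding, and a motif missing from these windows may lie elsewhere. CACGTG, TTTGGCGC, TTTCGCGC, TGATGNAAT and CCAAT do not contain each other.

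Genes of nucleotide synthesis were higher on the array titled mir155KO, by small amounts. Of the 33 measured genes 30 had a difference above 0, where 56.9% of all 10717 expressed genes did, and the 3 exceptions were Adsl, Impdh1 and Hprt. A gene counted as expressed where its mean level reached 6.71, which is the array median without control probe sets, and all 33 did so on both arrays. The median difference was 0.30, against 0.03 over all expressed genes. In all, 18 genes were higher by 0.25 or more (1.19-fold), where 7.6% of expressed genes were, and 0 were lower by as much, where 6.4% of expressed genes were. Atic, Prps2, Dctd and Pfas were higher by 0.5 or more (1.41-fold), where 0.681% of expressed genes were, and no member was lower by 0.5, where 1.31% were. There is 1 array per title, so no difference can be set against a replicate spread and no p-value was computed. Nothing about the genotypes is read from these shares, since the list was drawn up with the same contrast known.

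**Figure D1:**
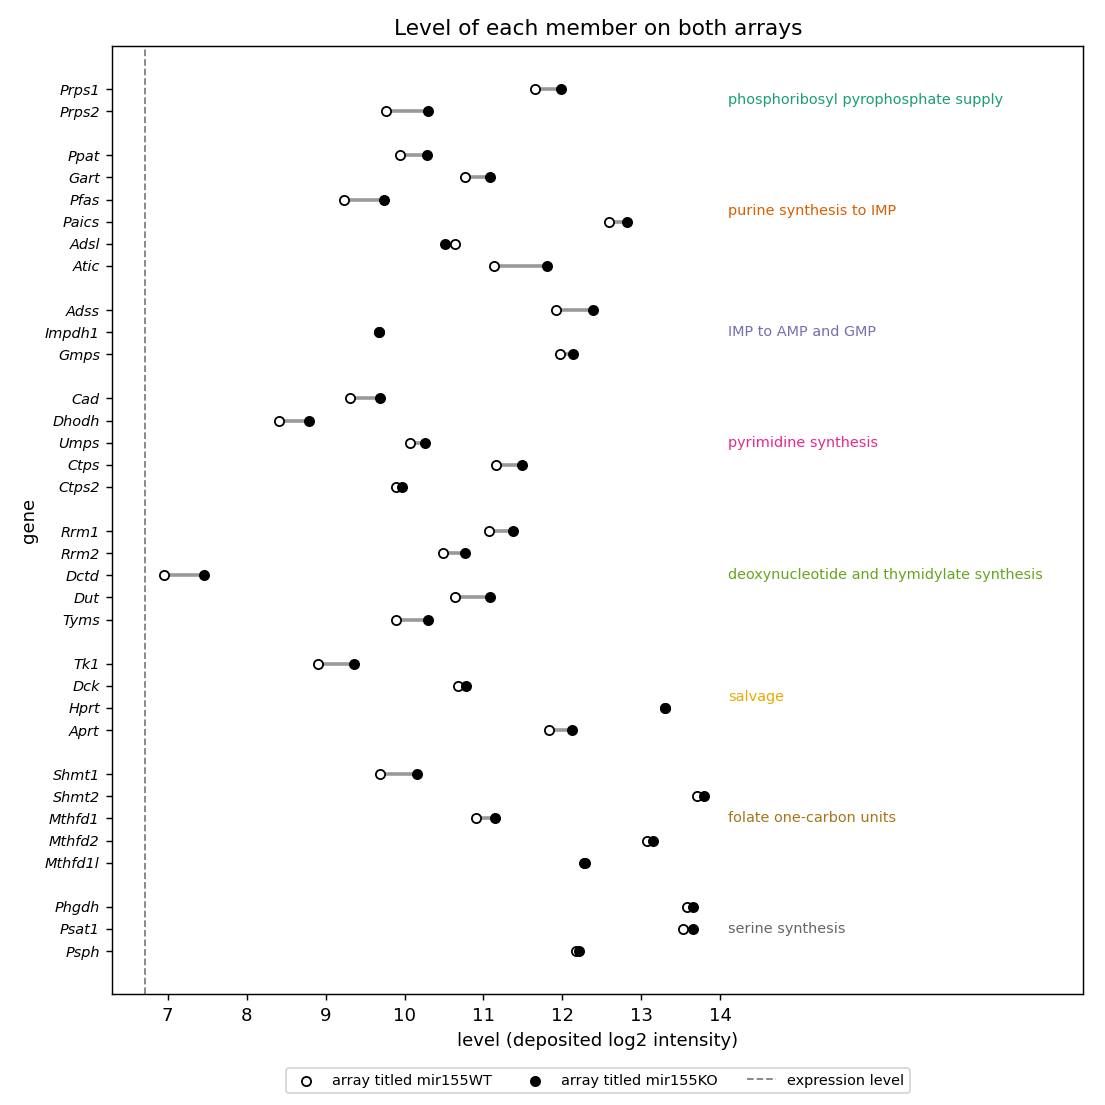
Level of each of the 33 measured genes on both arrays, as deposited log2 intensity, with 1 open point for the array titled mir155WT and 1 filled point for the array titled mir155KO, joined by a line and ordered by branch. The dashed line is the expression level of 6.71. The filled point lies to the right for 30 genes, and the points of Hprt, Impdh1 and Mthfd1l nearly coincide.

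Other probe sets of the same gene show how far a difference depends on the probe set. They are read from the same RNA and the same arrays, so they hold no variation between cultures, labellings or arrays. The 2 brightest expressed probe sets of a gene gave differences that were 0.084 apart in the median case and 0.31 apart at the 95th percentile (4906 genes). Of the 33 members, 15 were higher by more than that 95th percentile, where 4.26% of expressed genes were. This count does not set them beyond the spread between arrays, which cannot be measured here. Of the members, 21 had several expressed probe sets, and for 19 these lay on the same side of 0, and the exceptions were Dck and Shmt2. Among 12 of these that were higher by 0.25 or more, 9 were also higher by 0.25 or more on the next brightest probe set, while Rrm1, Rrm2 and Aprt were not. Over all 68 expressed probe sets of the members, 63 had a difference above 0, which counts the same genes again and is no added support. No matching share over all genes was computed for the members with several probe sets or for these 68 probe sets.

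Phosphoribosyl pyrophosphate is made by the synthetases encoded by Prps1 and Prps2, both on the X chromosome. Prps1 had levels of 11.99 (mir155KO) and 11.66 (mir155WT), a difference of 0.33. Prps2 had levels of 10.30 and 9.76, a difference of 0.53 or 1.45-fold, rank 51 of the 10717 expressed genes. Both genes were higher on the array titled mir155KO. The other probe sets of Prps2 differed less, by 0.33 and 0.05, so its size depended on the probe set while its direction did not.

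Purine synthesis to IMP held the highest member and the lowest. Ppat, which encodes the amidotransferase that commits phosphoribosyl pyrophosphate to the pathway, had levels of 10.29 and 9.94, a difference of 0.34. Gart, a trifunctional enzyme that uses formyl-folate, had levels of 11.08 and 10.76, a difference of 0.32. Pfas, the glutamine-using synthase of the following step, had levels of 9.74 and 9.23, a difference of 0.51. These 3 genes of the early steps were all higher by 0.25 or more. The 4 probe sets of Gart spread from 0.02 to 0.51, and the 2 expressed probe sets of Ppat gave 0.34 and 0.49.

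Paics, a bifunctional carboxylase and synthetase, had levels of 12.82 and 12.58, a difference of 0.24, just under the 0.25 limit. Its 3 probe sets lay between 0.23 and 0.35. Adsl, the lyase that acts in this chain and again on the way to AMP, had levels of 10.52 and 10.63, a difference of -0.12 on a single probe set. Adsl was the lowest of all 33 members. Atic, the bifunctional enzyme that adds the last formyl unit and closes the ring to IMP, had levels of 11.80 and 11.13. Its difference of 0.67 (1.59-fold) was the highest of the list and rank 22 of all expressed genes, and its other probe set gave 0.46. The branch had a median of 0.33, with 5 of 6 genes higher and 4 by 0.25 or more.

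The branch point at IMP was uneven. Adss, the adenylosuccinate synthase that leads to AMP, had levels of 12.39 and 11.92, a difference of 0.47 (1.39-fold). On the GMP side, Impdh1, one of the IMP dehydrogenases, had the same level of 9.68 on both arrays, with a difference of -0.0024. Gmps, the synthase that completes GMP, had levels of 12.13 and 11.97, a difference of 0.16. Adss was thus higher by more than either GMP gene read here, while Adsl, which acts after it on the way to AMP, was at -0.12. The probe sets of Gmps spread from 0.16 to 0.36, and the other dehydrogenase gene, Impdh2, was not analysed here.

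All 5 pyrimidine synthesis genes were higher on the array titled mir155KO, with a median of 0.33, and 3 of them by 0.25 or more. Cad encodes the trifunctional protein that starts the pathway, and its levels were 9.69 and 9.31, a difference of 0.38. Dhodh, the mitochondrial dehydrogenase that makes orotate, had levels of 8.79 and 8.41, also a difference of 0.38. Umps, which turns orotate into UMP, had levels of 10.26 and 10.07, a difference of 0.19. The next brightest probe sets gave 0.41 for Cad, 0.27 for Dhodh and 0.30 for Umps, so the order of these genes depended on the probe set. The CTP synthase genes came apart. Ctps had levels of 11.48 and 11.15, a difference of 0.33, and Ctps2 had levels of 9.96 and 9.90, a difference of 0.07. Each of these was read by a single expressed probe set.

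Deoxynucleotide and thymidylate synthesis was, with phosphoribosyl pyrophosphate supply, a branch in which every gene was higher by 0.25 or more (5 of 5, median 0.40). Rrm1, the large subunit of ribonucleotide reductase, had levels of 11.38 and 11.07, a difference of 0.30. Rrm2, its small subunit, whose level is known to peak in S phase, had levels of 10.77 and 10.49, a difference of 0.28. The other probe sets of Rrm2 gave 0.03 and 0.16, so for this subunit the 0.25 limit was reached by the brightest probe set only. The other 3 genes lie around dUMP and had differences of 0.40 to 0.51. Dctd, the dCMP deaminase, had the lowest levels of the list, 7.46 and 6.95, and a difference of 0.51. Dut, the dUTPase that keeps uracil out of DNA and yields dUMP, had levels of 11.09 and 10.64, a difference of 0.45. Tyms, the thymidylate synthase, had levels of 10.29 and 9.89, a difference of 0.40. The next probe sets of Dut and Tyms gave 0.37 and 0.45 at mean levels of 6.93 and 7.04, and Dctd had 1 probe set. All of these lay near the expression level. A brighter set shared by Tyms and Tyms-ps, with a mean level of 11.87, gave a smaller difference of 0.11.

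Salvage genes were split. Tk1, the thymidine kinase made in S phase, had levels of 9.35 and 8.90, a difference of 0.45. Aprt, which recovers adenine, had levels of 12.12 and 11.82, a difference of 0.30 that dropped to 0.10 on its other probe set. Dck, the deoxycytidine kinase, had levels of 10.77 and 10.67, a difference of 0.10, with other probe sets at -0.02 and 0.10. Hprt, which recovers hypoxanthine and guanine, had a level of 13.30 on both arrays and a difference of -0.00015. Tk1, read by 1 probe set, was the salvage gene with the largest difference, and Hprt had nearly the same level on both arrays.

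Folate one-carbon genes divided by compartment, a division chosen after the values were seen. Shmt1, the cytosolic serine hydroxymethyltransferase, had levels of 10.16 and 9.69, a difference of 0.47, and its 4 probe sets lay between 0.30 and 0.47. Mthfd1, the trifunctional cytosolic enzyme that makes formyl-folate, had levels of 11.15 and 10.91, a difference of 0.24, and its other probe sets gave 0.28 and 0.59. Both cytosolic genes were higher on every expressed probe set, 7 in all. In mitochondria, Shmt2 had levels of 13.79 and 13.71, a difference of 0.08, with its 4 probe sets between -0.01 and 0.08. Mthfd2, the dehydrogenase and cyclohydrolase of dividing cells, had levels of 13.15 and 13.08, a difference of 0.08, and Mthfd1l, the formyl-folate synthetase, had levels of 12.29 and 12.28, a difference of 0.01. The 3 mitochondrial genes thus had differences of 0.01 to 0.08 and the 2 cytosolic genes 0.24 and 0.47.

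Serine synthesis resembled the mitochondrial folate enzymes in size. Phgdh, the dehydrogenase that diverts a glycolytic intermediate to serine, had levels of 13.65 and 13.57, a difference of 0.07, and its 4 probe sets lay between 0.03 and 0.13. Psat1, the aminotransferase of the pathway, had levels of 13.65 and 13.53, a difference of 0.12. Psph, the phosphatase that releases serine, had levels of 12.20 and 12.17, a difference of 0.04. None of these 3 genes reached 0.25. Together with the 3 mitochondrial folate genes they had a median of 0.08, against 0.33 over the other 27 members, a grouping made after the values were seen that fixes this gap.

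**Figure D2:**
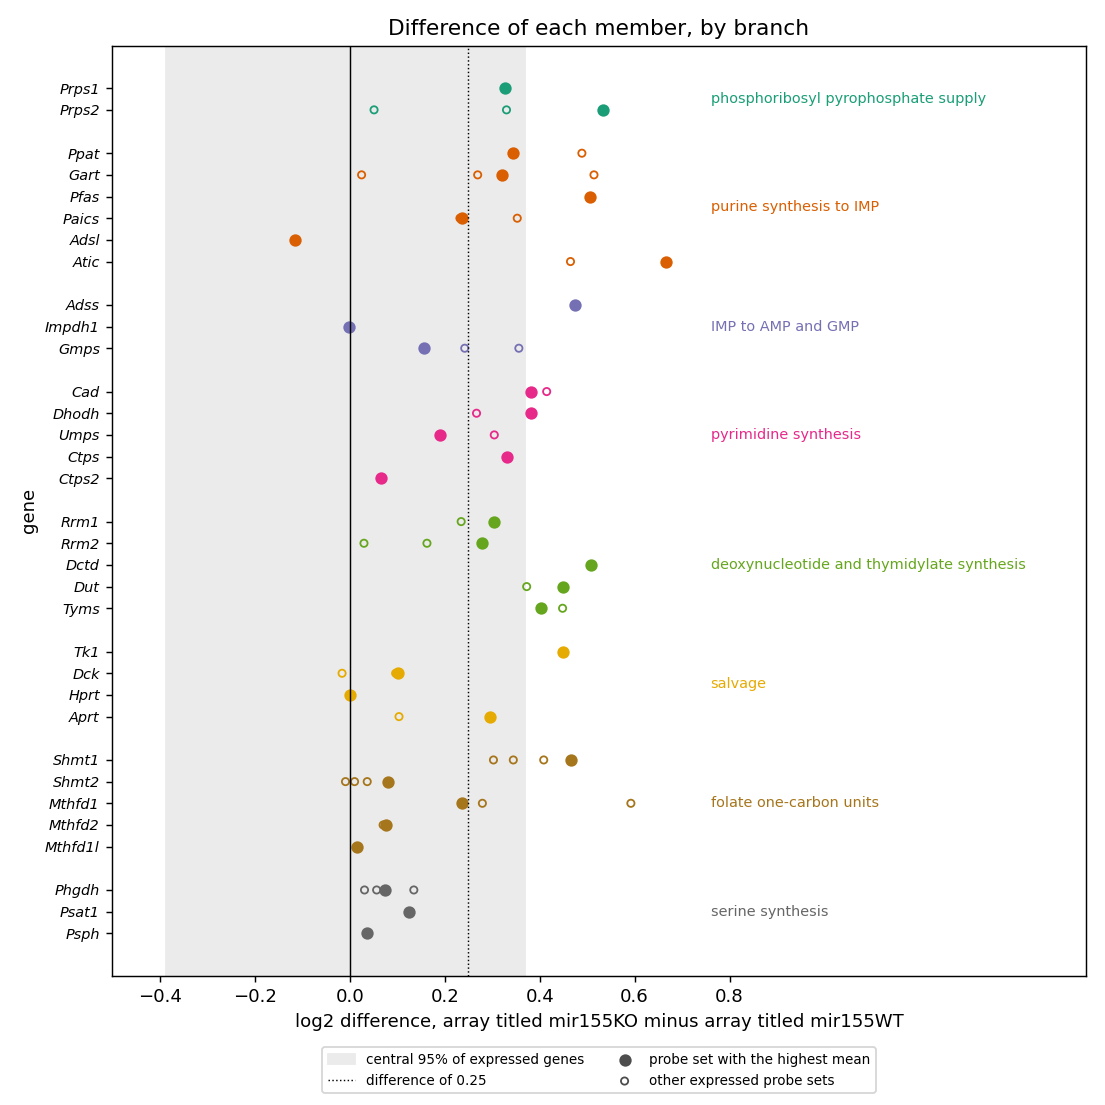
Log2 difference of each member (array titled mir155KO minus array titled mir155WT), by branch, with the probe set of the highest mean as a filled point and the other expressed probe sets of the gene as open points. The grey band is the central 95% of all expressed genes (-0.39 to 0.37) and the dotted line is 0.25. The filled points of the deoxynucleotide genes lie right of the line, with open points of Rrm1 and Rrm2 left of it, while the serine synthesis genes and Shmt2, Mthfd2 and Mthfd1l lie near 0.

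Some of the genes with small differences were read by bright probe sets, while Impdh1, Ctps2, Dck and Adsl had small differences at mean levels under 12. All 6 genes of serine synthesis and mitochondrial folate metabolism had a mean level of 12 or more, as did Paics, Adss, Gmps and Hprt. Among these 10 members the median difference was 0.08 and 1 was higher by 0.25 or more, against 0.33 and 17 of 23 for members under 12. Over all expressed genes the difference had an SD of 0.16 at levels of 12 or more (1029 genes) and 0.20 below, and 3.50% and 8.04% were higher by 0.25 or more. Across the 33 members, which share the same pair of arrays, the correlation of difference with mean level was -0.48, and across all expressed genes 0.06. The part of signal level in the small differences was not tested.

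**Figure D3:**
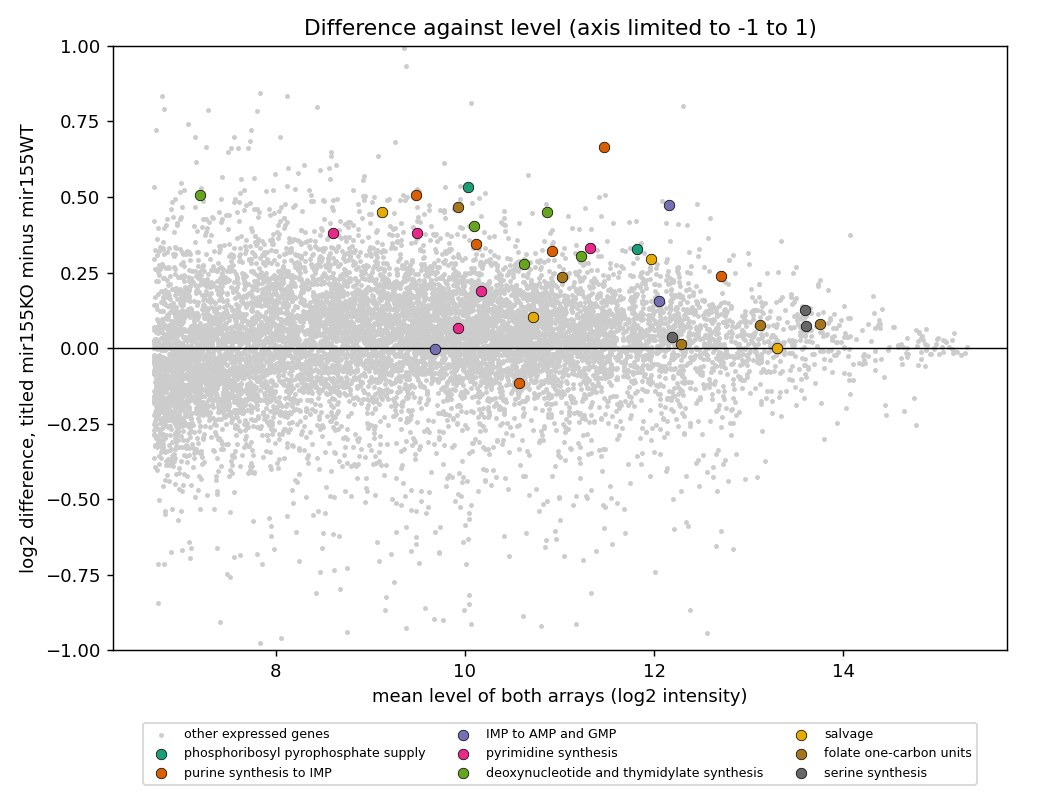
Log2 difference against mean level of both arrays (log2 intensity), with members coloured by branch and the other expressed genes in grey; the vertical axis is limited to -1 to 1. Members under a level of 12 lie mostly above 0.25, and the 6 serine synthesis and mitochondrial folate genes lie at levels of 12 or more with differences of 0.01 to 0.12.

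Other genes of the pathway followed the members only in part. Over all expressed genes 56.9% were higher and 7.6% were higher by 0.25 or more, with a median of 0.03. Of 10 expressed nucleotide kinases 9 were higher, 2 by 0.25 or more, with a median of 0.11. The highest were Adk, the adenosine kinase (0.40), and Dtymk, the thymidylate kinase that follows Tyms and Tk1 (0.32), and the lowest were Uck1 (-0.07) and Nme2 (0.04). The expressed probe sets of Adk ran from -0.24 to 0.40 and thus gave both directions. Among folate uptake and recycling genes 8 of 10 were higher, 4 by 0.25 or more, with a median of 0.22. Aldh1l2, a mitochondrial formyl-folate dehydrogenase (0.45), and Gcsh, a carrier protein of the mitochondrial glycine cleavage system (0.34), were the highest, and Dld (-0.23) and Ggh (-0.03) the lowest. Aldh1l2 and Gcsh act in mitochondria, so small differences were not shared by every mitochondrial one-carbon gene.

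Genes of nucleotide interconversion and breakdown had a median of 0.04 (-0.0015 after a loess curve was subtracted) over 9 expressed of 14 measured. Of these 1 was higher and 1 lower by 0.25 or more. Over all expressed genes 56.9% were higher, 7.6% higher by 0.25 or more and 6.4% lower by as much. Ampd2, an AMP deaminase, was the highest (0.42), followed by Ada, the adenosine deaminase (0.13). Samhd1, which degrades dNTPs, was the lowest. Its levels were 12.42 and 12.82, a difference of -0.39, and its 5 probe sets lay between -0.41 and -0.16. Samhd1, named here as the lowest of its list, lay lower on the array where all 5 genes of the deoxynucleotide and thymidylate branch were higher. For Rrm2 of that branch the second probe set gave only 0.03. A link between these values was not tested. Nt5e, the ectonucleotidase CD73, followed at -0.15. Of 3 nucleoside transporter genes Slc29a3 (0.28) and Slc29a1 (0.23) were higher, and Slc29a2 (-0.02) lay at the expression level.

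ATF4 and its amino acid response targets lay close to 0. Of 9 expressed genes 4 were higher and 5 lower, none by 0.25, with a median of -0.0044. For this list and the next, the shares over all expressed genes were 56.9% higher, 7.6% higher by 0.25 or more and 6.4% lower by as much. Ddit3 (0.18) and Aldh18a1 (0.15) were the highest and Trib3 (-0.10) and Chac1 (-0.07) the lowest. The expressed probe sets of Ddit3 ran from 0.18 to 0.29, and those of Atf4 from -0.02 to 0.14, thus in both directions. This list was bright, with median levels of 12.78 (mir155KO) and 12.63 (mir155WT). At levels of 12 or more 3.50% of all expressed genes were higher by 0.25 or more. The part of signal level in these small differences was not tested. S phase genes outside nucleotide synthesis were higher in 14 of 15, 8 of them by 0.25 or more, with a median of 0.26. Cdc6, a licensing factor (1.09), and Pola1, a polymerase subunit (0.50), were the highest, and Mcm2 (-0.01) and Fen1 (0.01) the lowest. Some sizes depended on the probe set. Expressed probe sets ran from -0.08 to 0.41 for Mcm3, from 0 to 0.37 for Cdc45 and from 0.26 to 0.73 for Mcm4. The median of the S phase list was 0.22 with the mean of all probe sets and 0.32 with the second brightest. The part of a different share of cycling cells in the members' differences was not tested.

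**Figure D4:**
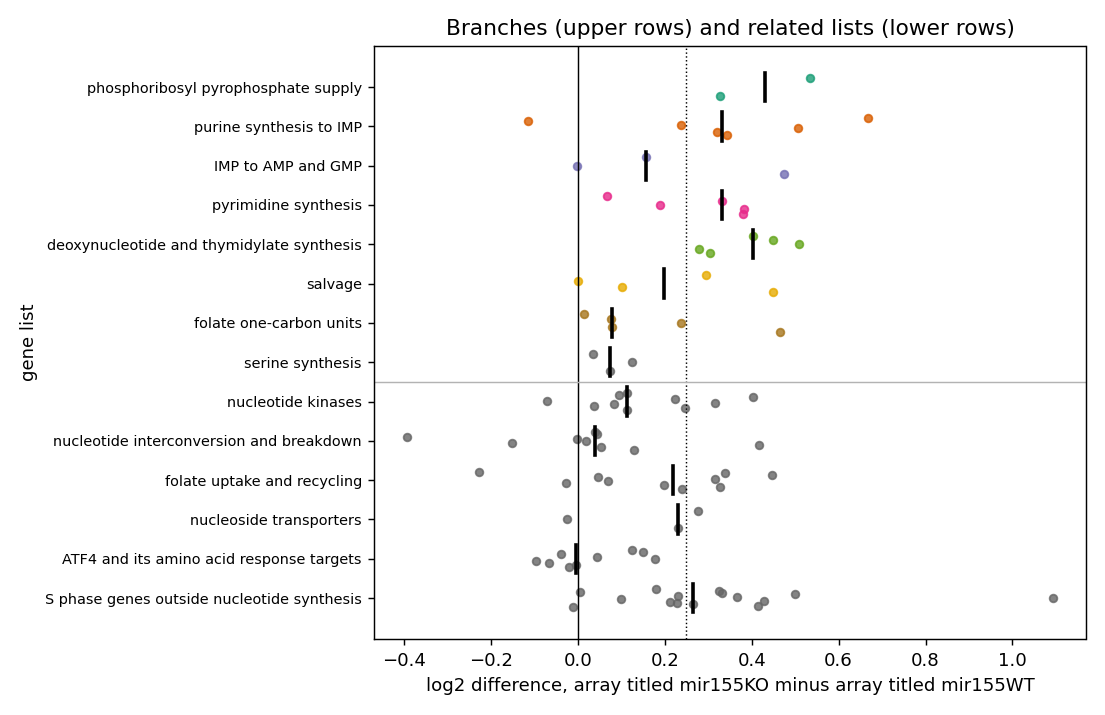
Log2 difference of each expressed gene (points) and the median (black bar) for the 8 branches of the list (above the grey line) and for 6 related gene lists (below it), with the dotted line at 0.25. Phosphoribosyl pyrophosphate supply (0.43), the deoxynucleotide branch (0.40), purine synthesis (0.33) and pyrimidine synthesis (0.33) have medians above that of the S phase genes (0.26). Salvage (0.20), IMP to AMP and GMP (0.16), folate one-carbon units (0.08) and serine synthesis (0.07) lie below it. The ATF4 list (-0.0044) lies near 0. With the second brightest probe set, not drawn, pyrimidine synthesis (0.30) fell below the S phase genes (0.32) and IMP to AMP and GMP (0.36) rose above them. IMP to AMP and GMP (0.25) was also above them (0.22) with the mean of all probe sets. With plain _at probe sets salvage, then read by Tk1 alone (0.45), was above them (0.26).

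Both arrays carried B cell markers. For scale, 10717 of the 18193 measured genes had a mean at or above the expression level. All 7 measured B cell markers were at or above the expression level on each array, and their summed linear intensity was 1.12 times as high on the array titled mir155KO. Of 8 macrophage and monocyte markers 6 (mir155KO) and 7 (mir155WT) reached that level, with a summed ratio of 0.833, most of them close to it. Tyrobp was brighter, with a mean level of 9.17 and a difference of -0.39. Of the 7 expressed by their mean, 6 were lower and 1 higher on the array titled mir155KO, where 56.9% of expressed genes were higher. By 0.25 or more 2 were lower, where 6.4% of expressed genes were. Of 9 measured neutrophil and precursor markers 3 reached it on each array, namely Lcn2 (mean level 9.44), Camp (6.84) and Prtn3 (6.77). Elane, Mpo, Ltf, Ngp, S100a8 and S100a9 did not. Of 6 stem and progenitor markers Flt3 (mean level 9.32), Myb (7.33) and Lmo2 (11.26) reached the expression level, and Kit, Cd34 and Gata2 did not. Of 5 measured T cell markers Cd3e, Cd3d, Cd4 and Cd8a reached it at mean levels of 7.36 to 7.64, with a summed ratio of 1.02. The 5 plasma cell markers all reached it with a summed ratio of 0.968, and of these Prdm1 (-1.19) and Jchain (-0.56) were lower while Sdc1 (0.07), Irf4 (0.05) and Xbp1 (0.03) lay near 0. In bulk RNA fewer cells of a type and less RNA per cell cannot be told apart, and the part of cell composition in the members' differences was not tested.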

How the data were processed

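RNA from mouse B cells was measured on 2 Affymetrix arrays, 1 per title. Biotin-labelled cRNA was made from Trizol-extracted total RNA with the 3′ IVT Express kit, per the labels' protocols. The authors deposited a table of log2 intensities for 45101 probe sets, between 3.09 and 15.4. That these are log2 values was inferred from their range, and the sources used here do not give how they were summarised or normalized. After sorting, both arrays agree to within 0.063, so a difference in total RNA per cell would not be seen.

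The platform's annotation named the probe sets: 34945 with a single gene, 932 with several, 9160 with none and 64 controls. All 33 measured members matched the RefSeq symbol of their Entrez number. Each gene took its singly named probe set with the highest mean, and genes with a mean level of 6.71 or more counted as expressed. Differences are titled mir155KO minus titled mir155WT, described by counts at 0.25 and 0.5 and by medians. With 1 array per title there is no test, and precision is limited by the number of arrays. The text names every member, Mir155hg, and the highest 2 and lowest 2 expressed genes of each related list (for the 3 transporters, all). It also names the expressed genes of marker lists with at most 4. Other markers and other genes of the related lists are given because their values were seen. The members, lists and limits were chosen with earlier results of these data known. Counting code was tested on data with known shifts. Other settings were plain _at probe sets, averaging all singly named probe sets, the second brightest expressed probe set, quantile normalization, a loess curve (span 0.3), no filter, and a filter at the 75th percentile of levels (8.84). A planned comparison of paralogous proteins was not run. Values were computed with NumPy 2.4.6 and pandas 2.3.3 in Python 3.11.15, the loess curve with statsmodels 0.14.6 and figures with matplotlib 3.10.9.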

Additional observations from a re-analysis of the deposited data

How the results depend on the processing

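No paired analysis was possible because there is 1 array per title, and for the same reason no array could be left out. The median difference of the members stayed between 0.26 and 0.32 under 7 other settings, with 24 to 30 genes above 0 of 27 to 33 and 16 to 18 at 0.25 or more. Which genes reached 0.25 changed 16 times in 222 values: Rrm1, Rrm2 and Aprt lost it and Paics, Gmps, Umps and Mthfd1 gained it, mostly with another choice of probe set. At 0.5 or more 4 genes counted. The phosphoribosyl pyrophosphate and deoxynucleotide medians became 0.32 and 0.29 with the mean of all probe sets. With the second brightest probe set the medians of the IMP to AMP and GMP branch, salvage and the nucleoside transporters became 0.36, 0.052 and 0.063, and salvage was 0.45 with plain _at probe sets, where 1 gene was left; the cause was not tested. The nucleotide interconversion median became 0.012 after quantile normalization and -0.0015 after the loess curve, and that of the kinases 0.065 and 0.061. Single members changed sign 5 times: Dck (-0.02, second brightest probe set), Shmt2 (-0.0091, that setting and plain _at probe sets) and Mthfd1l (-0.0090 after quantile normalization, -0.01 after the loess curve). If the source names hold, the differences of 0.25 or more become Prps1 -0.33, Prps2 -0.53, Ppat -0.34, Gart -0.32, Pfas -0.51, Atic -0.67, Adss -0.47, Cad -0.38, Dhodh -0.38, Ctps -0.33, Rrm1 -0.30, Rrm2 -0.28, Dctd -0.51, Dut -0.45, Tyms -0.40, Tk1 -0.45, Aprt -0.30 and Shmt1 -0.47. Over members under a level of 12, an alternative chosen after seeing the data, the median was 0.33.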

Other observations

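Probe sets that the annotation assigns to several genes entered no comparison, because their signal cannot be given to a member alone. The set shared by Prps1 and Prps1l3 had levels of 11.84 on the array titled mir155KO and 11.60 on the array titled mir155WT, a difference of 0.25. The set shared by Tyms and Tyms-ps had levels of 11.93 and 11.81, a difference of 0.11, which is smaller than the 0.40 of the probe set named for Tyms alone. The sets that Phgdh shares with Gm8096 and with Gm6756 differed by 0.15 and 0.09, close to the 0.07 of Phgdh itself.

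Slc25a32, the carrier that brings folate into mitochondria, and Slc19a1, the reduced folate carrier of the cell surface, were both chosen after their values were seen. Slc25a32 had levels of 9.69 and 9.36, a difference of 0.33, and its other expressed probe set gave 0.52. Slc19a1 had levels of 10.57 and 10.33, a difference of 0.24, and its other expressed probe set gave 0.32. Rrm2b, the p53-regulated small subunit of ribonucleotide reductase, had levels of 10.73 and 10.69, a difference of 0.04, and its 4 probe sets ran from -0.08 to 0.25. Asns, the asparagine synthetase gene and a classic ATF4 target, had a level of 13.07 on both arrays.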
